A study of Mus musculus with 4 samples.

Results

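The 200 most abundant processed pseudogenes were examined in mRNA libraries of isolated mouse cortical astrocytes, and none of them was on in 1 group of libraries only. The 200 were taken from 1704 genes that carry the biotype processed pseudogene, among 23475 genes listed in all, by the largest summed count over the 4 libraries. Gm8822, Rps3a2 and Gm13736 were left out before ranking. The summed count chose the members and is therefore given as a description. It ran from 197 to 36014 counts with a median of 431.5. Rps16-ps2, with 198 counts, and Gm17068, with 197, were the last inside the rank of 200. Gm13689 and Gm12403, with 196 counts each, were the first outside it.

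The libraries came from astrocytes of the cerebral cortex at postnatal day 5, glia that contact neurons and vessels and take up transmitter and potassium. There were 2 libraries of PD1fl/fl mice, which carry a floxed PD-1 gene and are called WT, and 2 of PD1cKO-Cx3 mice, in which the name gives a conditional PD-1 knockout and which are called KO. The labels do not spell out which driver the suffix stands for. The comparison asks how the astrocyte preparation differs when PD-1, an inhibitory immune receptor, is deleted. Nothing in the labels ties a library to an animal of its own. The p-values therefore reflect only how far these 4 libraries spread, and part of that spread may be technical.

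A processed pseudogene is a copy of a spliced mRNA that was reverse transcribed and inserted elsewhere in the genome. It therefore lacks the introns of its parent gene, and most copies no longer encode a protein. Parents are often highly expressed housekeeping genes, such as those for ribosomal proteins and glycolytic enzymes. A read from a stretch where copy and parent are identical can be placed at either locus, so a count at a copy is not by itself evidence of transcription there. Counts of copies and parents are for this reason given side by side, and those of near-identical pairs are uncertain.

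Shown beside their parents are 4 copies whose groups did not overlap and 2 in which 1 library stood apart. The capital letters are the bases by which a read can be told apart. Gm7335 is left out here, since none of its mismatches fell in the coding part of its parent. Each pair covers 90 bases of the aligned coding part of the parent, on the strand of the copy. The sequences are from the GENCODE M21 transcripts of build GRCm38. The window without gaps that holds the most differences was chosen, so it is not typical of the whole alignment. Gm7901, at chr8:75711749-75711838 on the minus strand, differed from Phgdh, the first enzyme of serine synthesis, at 6 bases of the window.
Gm7901: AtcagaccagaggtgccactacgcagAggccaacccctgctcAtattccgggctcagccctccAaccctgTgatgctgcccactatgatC
Phgdh: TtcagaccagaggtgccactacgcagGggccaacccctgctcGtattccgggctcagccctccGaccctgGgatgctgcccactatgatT
Gm13456, at chr2:40556589-40556678 on the plus strand, differed at 4 bases from Eef1a1, the elongation factor that brings aminoacyl-tRNA to the ribosome.
Gm13456: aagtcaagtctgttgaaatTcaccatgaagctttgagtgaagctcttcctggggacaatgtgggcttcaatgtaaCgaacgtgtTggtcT
Eef1a1: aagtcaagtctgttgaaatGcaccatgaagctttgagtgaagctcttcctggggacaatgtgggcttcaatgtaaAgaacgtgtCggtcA
Vcp-rs, at chrX:104346696-104346785 on the minus strand, differed at 3 bases from Vcp, an ATPase that extracts ubiquitinated proteins.
Vcp-rs: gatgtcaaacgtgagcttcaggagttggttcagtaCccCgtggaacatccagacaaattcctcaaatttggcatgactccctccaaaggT
Vcp: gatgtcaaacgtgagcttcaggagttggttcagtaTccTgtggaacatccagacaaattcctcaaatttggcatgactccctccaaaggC
BC002163, at chr16:42955646-42955735 on the plus strand, differed at 2 bases from Ndufs5, a subunit of respiratory complex I, and these were its only mismatches.
BC002163: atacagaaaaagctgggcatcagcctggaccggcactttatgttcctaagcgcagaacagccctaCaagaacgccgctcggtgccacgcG
Ndufs5: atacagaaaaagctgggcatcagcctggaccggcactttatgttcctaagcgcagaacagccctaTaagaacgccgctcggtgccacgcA
Rps2-ps13, at chrX:52898588-52898677 on the plus strand, is a copy in which 1 library stood far from the other 3. It differed at 2 bases of the window from Rps2, which encodes a protein of the small ribosomal subunit.
Rps2-ps13: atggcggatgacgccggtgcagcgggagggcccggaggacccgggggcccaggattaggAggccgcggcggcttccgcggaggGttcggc
Rps2: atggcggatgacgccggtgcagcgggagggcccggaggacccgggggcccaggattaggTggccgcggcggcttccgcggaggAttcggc
Gm14113, at chr2:147290524-147290613 on the plus strand, is a copy of Gapdh, a glycolytic enzyme, at 88.6% identity, with 12 differences in the window. It is the member that reached 0 counts in a library.
Gm14113: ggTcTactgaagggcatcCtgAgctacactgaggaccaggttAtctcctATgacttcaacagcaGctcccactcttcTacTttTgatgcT
Gapdh: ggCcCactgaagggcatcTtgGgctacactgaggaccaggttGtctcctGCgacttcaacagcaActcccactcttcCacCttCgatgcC

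Summed counts per library ranged from 14224519 to 16961160. The astrocyte markers were all detected, with a summed level of 5538 to 6065 CPM (counts scaled to a common library total). The sums overlapped between the groups, with 1 of 6 genes higher and 2 lower in both KO libraries. The summed microglial markers were at 3481 and 2916 CPM in the KO libraries against 637 and 858 CPM in WT, with 8 of 8 genes higher in both KO libraries, and the endothelial sum was at 372 and 186 against 104 and 47.5 CPM, with 5 of 5 higher. Markers of oligodendrocytes (557 and 698 against 411 and 262 CPM, 4 of 4 higher), their precursors (484 and 500.2 against 423 and 351 CPM, 2 of 2) and red cells (74.6 and 50.02 against 20.2 and 20.3 CPM, 3 of 3) were also higher in both KO libraries. Pericyte markers were at 620 and 384 against 312 and 330 CPM, with 2 of 4 higher, and neuronal markers at 553 and 563 against 600 and 678 CPM, with 1 of 4 higher and 1 lower. No marker of these lists was at 0, and the part of other cell types in the results below was not tested. In bulk RNA, fewer cells of a type and less RNA per cell cannot be told apart. Pdcd1, the targeted gene, had 20 counts in KO replicate 2 and 0 in the other 3 libraries, so it does not check the labels. KO replicate 2 had 2472 counts of the Y-linked Ddx3y and no count of Xist. Elsewhere Ddx3y was at 0 and Xist at 6732 counts or more. The 2 KO libraries thus differed in sex-linked transcripts and were not repeats of the same material.

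The members together held 59919 and 71185 counts in KO replicates 1 and 2, and 65181 and 55732 in WT replicates 1 and 2. These are 0.372%, 0.434%, 0.384% and 0.392% of the listed counts, so the groups overlapped. The members held 82.3% of all processed pseudogene counts, and the 10 largest held 44.0% of the members' own counts.

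A member was called on in 1 group only when both libraries of a group had at least 10 counts and both libraries of the other had 0. The count was 0 of 200 for KO and 0 of 200 for WT. Among the 13316 genes of any biotype with at least as large a summed count as the lowest member, 7 met the rule, which is 0.0526%, and all 7 were on in KO. A count of 0 members lies near this share. The set has no upper limit on counts, so it is not matched to the members in depth. At least 10 counts were present in all 4 libraries for 195 members, and 199 members were above 0 in all 4. The exception was Gm14113, the diverged Gapdh copy, with 60 and 135 counts in KO and 159 and 0 in WT. A count of 0 in WT replicate 2 allows up to 3 counts, or 0.211 CPM, by counting error alone. Without WT replicate 1, Gm14113 met the rule. Both KO libraries lay between the WT libraries, so the 0 belonged to 1 library and not to the group.

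Pseudogenes on in 1 group only were found below the rank of 200, among 1504 less abundant processed pseudogenes. In this range 5 were on in KO only and 1 in WT only, all with small counts. Rps27-ps1, the highest, had 12 and 25 counts in the KO libraries and 0 in WT. Tpd52-ps had 19 and 11, Gm18829 had 10 and 14, Gm16254 had 12 and 12, and Gm6305 had 11 and 11, again with 0 in both WT libraries. AC159114.1 had 22 and 11 counts in WT and 0 in both KO libraries. Over all genes listed 0.924% met the rule, with 190 on in KO and 27 in WT.

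All 200 members passed the filter on low counts and were tested among 17696 genes with edgeR's quasi-likelihood test and Benjamini-Hochberg adjustment at 0.05. None was called, against a background of 0.017%, and the smallest adjusted p was 0.141. At an unadjusted p under 0.05 there were 11 members (5.5%), 8 higher and 3 lower in KO, where 8.29% of all genes tested reached it (5.88% higher and 2.41% lower). With DESeq2, 5 members passed the threshold, against 2.14% of all genes (1.78% higher and 0.356% lower), and with limma-voom 0 passed. The 5 were Vcp-rs, Gm13456, Gm7901 and Gm7335, all higher in KO, and BC002163, lower in KO.

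**Figure D1:**
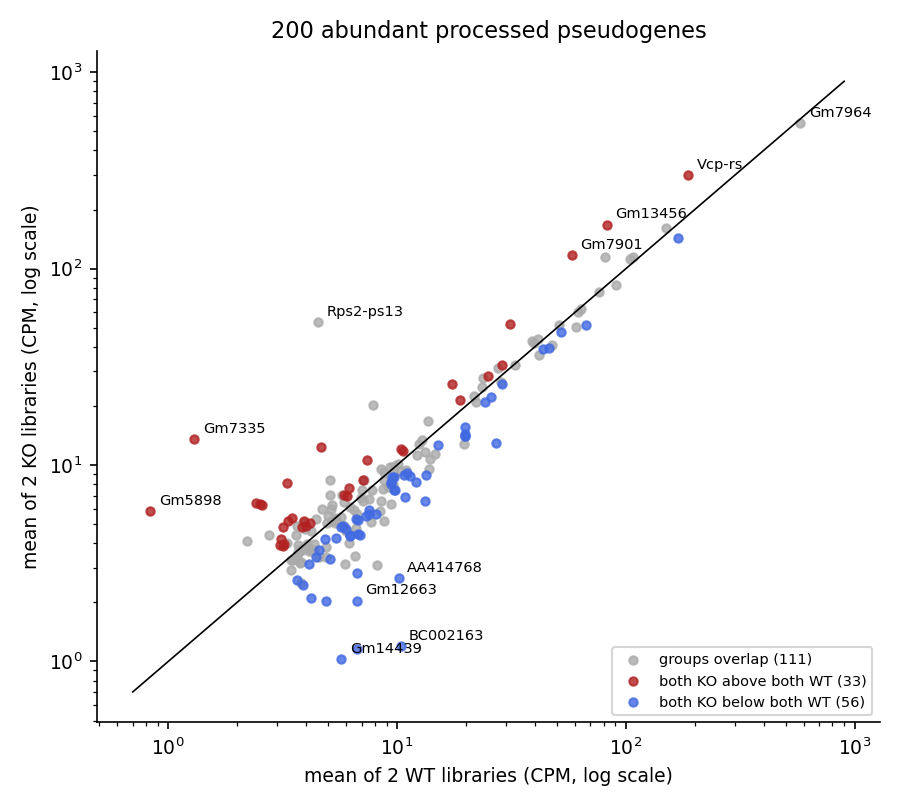
Mean CPM of the 2 KO libraries (vertical, log scale) against that of the 2 WT libraries (horizontal, log scale) for each of the 200 members, with the line of equal values. Colours mark the 33 members with both KO libraries above both WT libraries, the 56 with both below and the 111 with overlap, and most points lie close to the line.

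In 33 members (16.5%) both KO libraries lay above both WT libraries, where 21.2% of all genes tested did. Both lay below in 56 members (28%), where 18.4% of all genes did, and the groups overlapped in the other 111. The median log2 fold change of KO against WT was -0.10 over the members and 0.00 over all genes tested, with quartiles of -0.36 and 0.19. With KO replicate 1 left out the members' median was -0.030, and with WT replicate 2 left out -0.036. Leaving out KO replicate 2 gave -0.18. It was above 0 in 38.5% of members and 50.0% of all genes. The change was smaller than 0.5 in size for 147 members and larger than 1 for 21. The 21 are 10.5% of the members, and 15.7% of all genes tested had as large a value. Between the highest and the lowest library the median ratio of CPM was 1.51, and it stayed under 2 in 147 members. The plot of group means shows this as a narrow band along the line of equal values.

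The 10 most abundant members copy genes of RNA handling, translation, folding, protein turnover, endocytosis, chromatin and serine synthesis. Gm7964, a copy of Hnrnpk, whose protein binds pre-mRNA, had 8180 and 9706 counts in KO and 9844 and 8284 in WT. The groups overlapped, and the log2 fold change was -0.07 ± 0.11 (SE). Its share of the counts of copy and parent together was 15.5%, 15.9%, 15.5% and 15.5%, so copy and parent moved together across the libraries. The copies of the initiation helicase Eif4a1 (Eif4a-ps4, 11.02% to 11.63%), of the prolyl isomerase Ppia (Gm10123, 11.41% to 11.996%), of the clathrin adaptor subunit Ap2m1 (Gm13509, 19.2% to 19.9%) and of the chromatin-associated Ptma (Gm4617, 5.66% to 6.25%) also had narrow ranges of the share, although wider than that of Gm7964. Gm10123 matched Ppia at 100% of 490 bases. Its counts were 2282 and 2382 in KO and 2771 and 2489 in WT. The log2 fold change was -0.22 ± 0.13, beside -0.28 ± 0.09 for Ppia itself. Gm1821, a ubiquitin copy of Ubb, had 1509 and 2115 counts in KO and 2020 and 1287 in WT, with overlap.

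Vcp-rs, Gm13456 and Gm7901 departed from this pattern, with a share that was nearly the same within each group and different between the groups. Vcp-rs had 4890 and 4832 counts in KO and 3167 and 2691 in WT, while Vcp had 9385 and 9307 against 12362 and 10250. Both KO libraries were above both WT libraries for the copy and below them for the parent. The copy's share was 34.3% and 34.2% in KO against 20.4% and 20.8% in WT, and its log2 fold change was 0.68 ± 0.11 with an adjusted p of 0.190 (edgeR). Gm13456 had 2415 and 3013 counts in KO and 1390 and 1189 in WT, a log2 fold change of 1.02 ± 0.16 with an adjusted p of 0.167 (edgeR). Its share beside Eef1a1 was 3.67% and 3.64% in KO and 1.67% and 1.72% in WT, and Eef1a1 itself overlapped between groups.

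Gm7901 had 1879 and 1929 counts in KO and 982 and 840 in WT, a log2 fold change of 1.02 ± 0.15 with an adjusted p of 0.141 (edgeR). Phgdh, with 13137 and 13767 counts in KO and 20381 and 15870 in WT, lay on the opposite side at -0.47 ± 0.09. The copy's share was 12.5% and 12.3% in KO against 4.60% and 5.03% in WT. The second copy of Phgdh, Gm9347 on chromosome 7, had 198 and 203 counts in KO and 70 and 74 in WT, with a log2 fold change of 1.417 ± 0.399. Both copies of Phgdh were thus higher in KO while the parent was lower, with no overlap in any of the 3. The second copy of Eef1a1, Gm6548 on chromosome 17, stood at 91 and 114 counts in KO against 48 and 32 in WT, at 1.32 ± 0.56. The copies of a parent share identical stretches and may not be independent of each other.

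**Figure D2:**
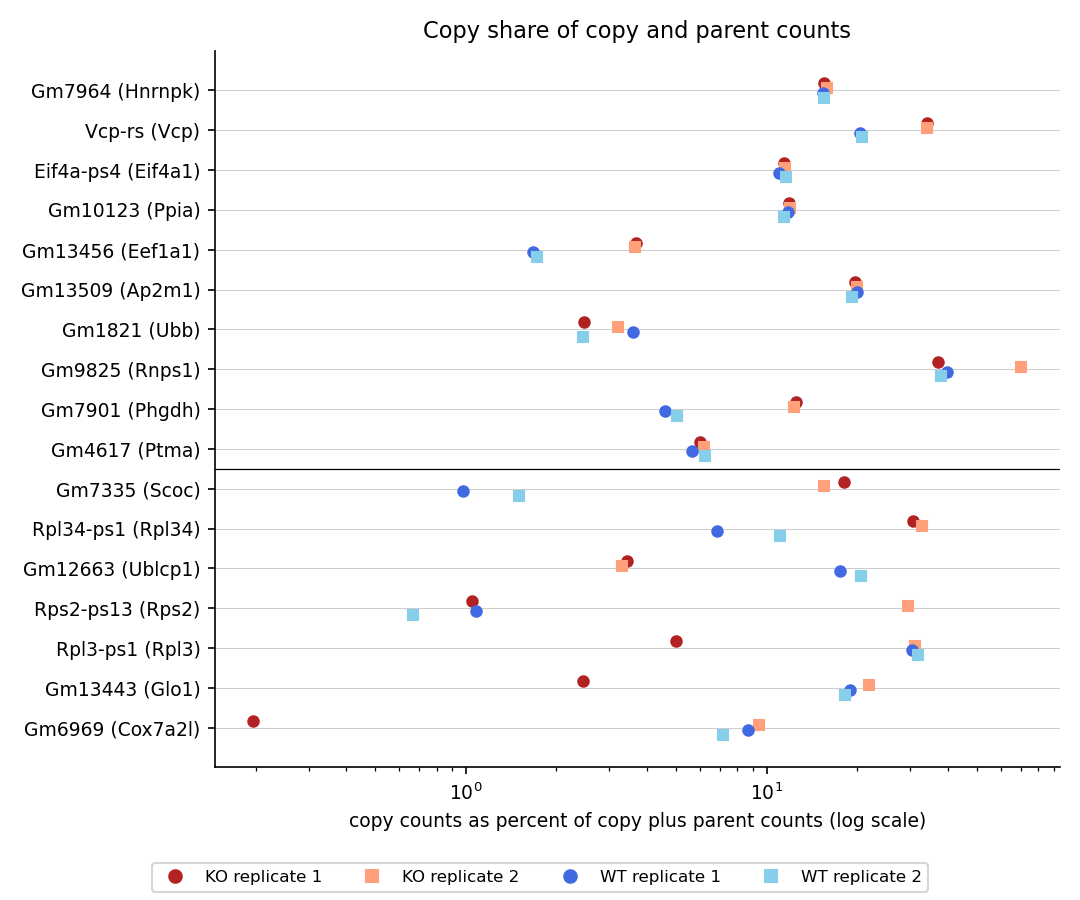
Counts of the copy as a percent of copy plus parent counts (horizontal, log scale) in each of the 4 libraries, for the 10 most abundant members (above the line) and for 7 members chosen after their values were seen (below it), with the parent in brackets. In Gm7964, Eif4a-ps4, Gm10123, Gm13509 and Gm4617 the 4 libraries nearly coincide, in Vcp-rs, Gm13456, Gm7901, Gm7335, Rpl34-ps1 and Gm12663 the groups separate, and in Gm9825 and the last 4 members 1 library stands apart.

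The share could be computed for the 198 members with a listed parent. It stayed within 1.5-fold over the 4 libraries in 118 of them. The lower KO share was at least 1.5 times the higher WT share in 9 members, and the lower WT share at least 1.5 times the higher KO share in 2. This description was added after the data were seen. With 2 libraries against 2, an exact permutation test cannot go below p = 0.333 (two-sided) for any of them, and the shares were not tested further. The 9 were Vcp-rs, Gm13456, Gm7901, Gm9347, Gm7335, Rpl34-ps1, Gm13394, Gm6548 and Gm5898, and the 2 were Gm4735 and Gm12663. Adding the counts of copies to those of their parents before the fit gave 0 calls among 158 parents with edgeR.

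Gm7335, on the minus strand of chromosome 17 at chr17:37713552-37713924, had the largest log2 fold change among members whose groups did not overlap. It copies Scoc, a short coiled-coil protein of the Golgi. Its counts were 219 and 221 in KO and 17 and 23 in WT, a log2 fold change of 3.38 ± 0.50 with an adjusted p of 0.141 (edgeR). The KO libraries agreed closely and lay far above both WT libraries, yet WT was not at 0. Scoc had 990 and 1205 counts in KO and 1723 and 1511 in WT, so that the copy's share was 18.1% and 15.5% in KO and 0.977% and 1.499% in WT. Copy and parent aligned over 373 bases with 6 mismatches, and 0 of the 6 fell in the coding part of the aligned transcript.

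Gm5898, a copy of Thrap3, which encodes an RNA-processing cofactor, had 64 and 126 counts in KO and 13 and 13 in WT. Its log2 fold change was 2.80 ± 0.75 with an adjusted p of 0.421 (edgeR), and Thrap3 overlapped between the groups. It lies inside Otud7a on the same strand, whose own counts of 21 and 57 in KO and 63 and 33 in WT overlapped. Rpl34-ps1 had 123 and 138 counts in KO against 42 and 59 in WT, at 1.29 ± 0.53. Its parent Rpl34, of the large ribosomal subunit, had 279 and 283 against 570 and 473, at -0.94 ± 0.23, the reverse order. Gm5637 had 114 and 94 counts against 30 and 44, at 1.41 ± 0.60, and here the parent Arpc1b, a subunit of the actin-branching Arp2/3 complex, had 3259 and 2983 against 1045 and 1272, at 1.36 ± 0.21. Copy and parent were higher to the same degree, and the share stayed between 2.79% and 3.38%. Gm17907, only 73.6% identical to the mitochondrial peroxidase gene Prdx3, had 125 and 76 counts in KO against 33 and 46 in WT.

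BC002163, the copy of Ndufs5, was the member with the lowest log2 fold change. Its counts were 14 and 25 in KO and 169 and 155 in WT, a log2 fold change of -3.10 ± 0.57 with an adjusted p of 0.235 (edgeR). Both KO libraries lay far below both WT libraries, and neither was at 0. Ndufs5 was on the same side, with 29 and 32 counts against 90 and 82 (-1.54 ± 0.62), and the copy held 32.6% and 43.9% of the joint counts in KO and 65.3% and 65.4% in WT. The copy lies inside Zbtb20 on the same strand, outside its exons, and Zbtb20 overlapped between the groups at 0.22 ± 0.13. Gm15712, a copy of Rpl3 with the lowest identity of all members at 71.4%, lies in the same host gene and overlapped between groups with 63 and 126 counts against 126 and 136.

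AA414768, on the X chromosome, had 40 and 46 counts in KO and 150 and 166 in WT, a log2 fold change of -1.94 ± 0.48 with an adjusted p of 0.369 (edgeR). Its closest coding gene, E330021D16Rik at 83.9% identity, is not listed. Gm12663 had 34 and 32 counts in KO and 103 and 104 in WT, at -1.70 ± 0.57. Its parent Ublcp1, a phosphatase of the nuclear proteasome, lay on the other side with 955 and 938 against 484 and 402 (1.05 ± 0.20), and the copy's share was 3.44% and 3.30% in KO and 17.5% and 20.6% in WT. The remaining members with large values below 0 were less even within a group. Gm14439 (Rpl27a) had 27 and 6 counts in KO and 37 and 133 in WT, and Gm6981 (Gapdh) had 35 and 2 against 66 and 136. AC153525.1 (Ewsr1) had 12 and 54 against 85 and 68. Gm3724 (Gabarapl2) had 63 and 28 against 127 and 85.

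Gm4735 was singled out after its values were seen, because its closest coding gene, Eno1b, was the only parent called by edgeR. Eno1b encodes an enolase of glycolysis. Eno1b had 1183 and 1009 counts in KO and 7 and 11 in WT, a log2 fold change of 6.85 ± 0.38 with an adjusted p of 0.0238 (edgeR). Without KO replicate 2 the smallest adjusted p of any parent was 0.0674, without WT replicate 1 it was 0.0551, and with limma-voom 0.0661, so that no parent was called there. Gm4735, which is 99.8% identical to Eno1b, had 241 and 215 counts in KO and 308 and 306 in WT, at -0.48 ± 0.28. The near-identical copy thus did not follow its closest coding gene. Whether Eno1b is the gene that Gm4735 was copied from was not tested.

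**Figure D3:**
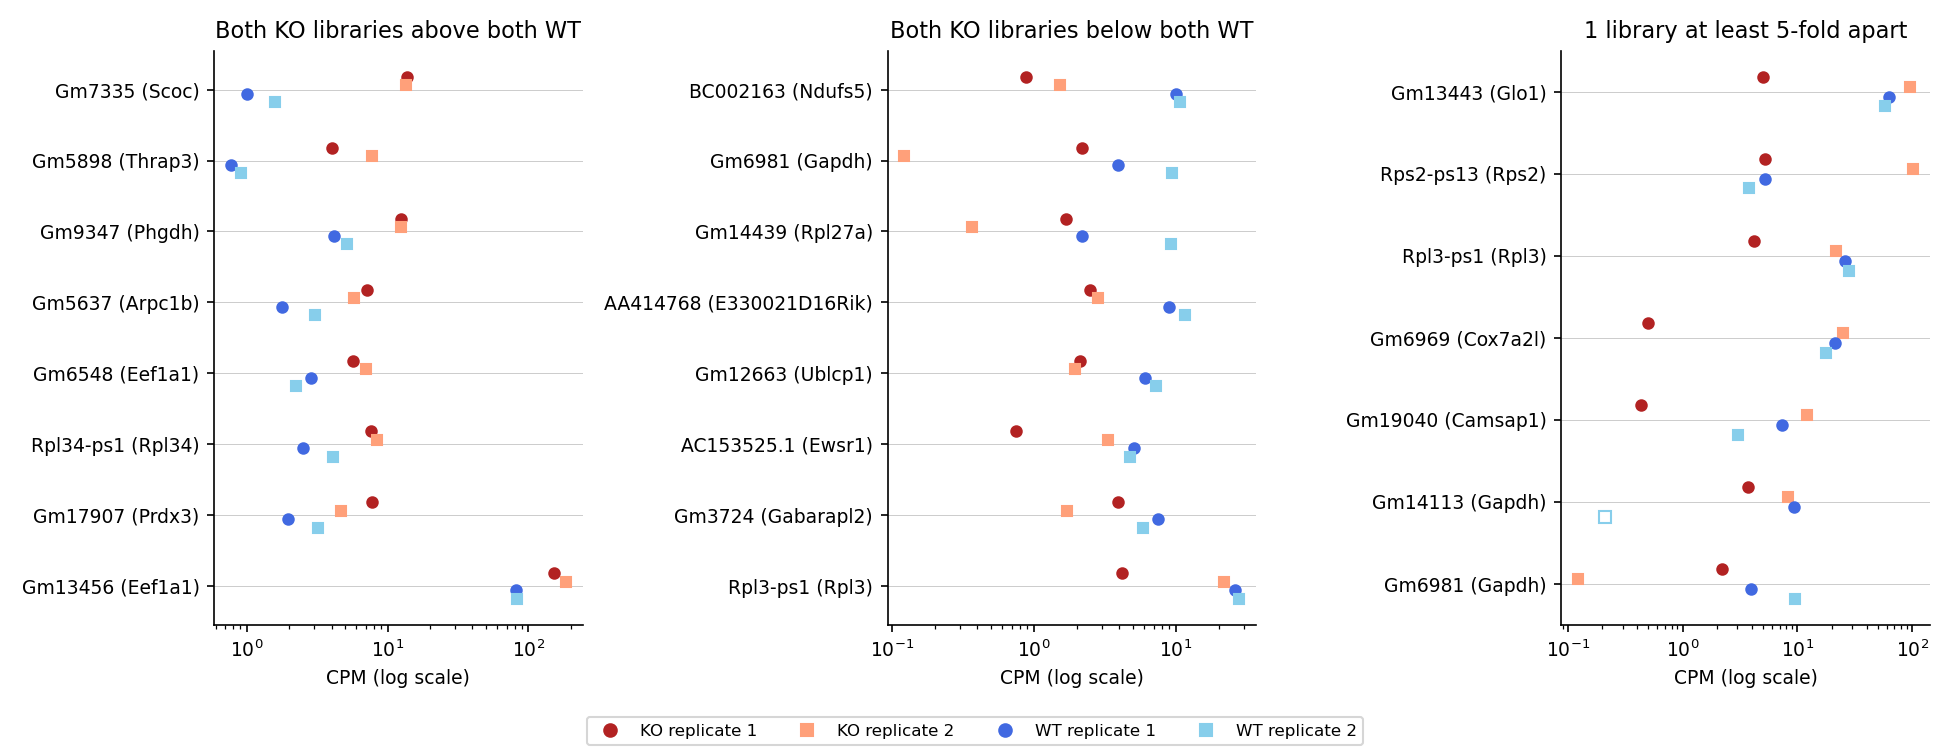
CPM (log scale) in each of the 4 libraries for the 8 members with the largest values above 0 and the 8 with the largest below 0 among those without overlap, and for the 7 members with 1 library at least 5-fold from its nearest neighbour. Parents stand in brackets, and the open square is WT replicate 2 of Gm14113, which had 0 counts, drawn at the 0.211 CPM that 3 counts would give.

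In 7 members (3.5%) 1 library lay at least 5-fold below or above the nearest of the other 3. Among genes with at least as large a summed count as the lowest member, 2.09% did. This rule was set after the values were seen. KO replicate 1 was the low library in 4 of them. Gm13443, a copy of the gene Glo1 for glyoxalase, which detoxifies methylglyoxal, had 81 counts there and 1563, 1065 and 832 in KO replicate 2, WT replicate 1 and WT replicate 2. Glo1 had 3220 counts against 5564, 4549 and 3728, so the copy's share was 2.45% against 18.2% to 21.9%. Gm6969, a copy of the respiratory chain assembly gene Cox7a2l, had 8 counts against 411, 361 and 258, and Rpl3-ps1 had 67 against 355, 440 and 403. Gm19040, a copy of the microtubule-end gene Camsap1, had 7 against 197, 124 and 44.

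Rps2-ps13, on the X chromosome, was high in KO replicate 2, the library with Ddx3y, at 1660 counts, while KO replicate 1 had 83 and the WT libraries 88 and 55. Its log2 fold change of 3.56 ± 1.27 exceeded that of every other member, but the groups overlapped and the adjusted p was 0.526 (edgeR). Without KO replicate 2 the log2 fold change was 0.20. In the same library Rps2 was lowest, at 3977 counts against 7829, 8049 and 8211, and the copy's share was 29.4% against 0.665% to 1.08%. Gm9825, a copy of the splicing factor gene Rnps1, and Rpsa-ps10, a copy of the ribosomal and laminin-binding protein gene Rpsa, showed the same arrangement. Gm9825 had 2465 counts in KO replicate 2 and 1118 to 1438 elsewhere, while Rnps1 had 1039 there and 1827 to 2166 elsewhere. Rpsa-ps10 had 601 counts against 58 to 130, while Rpsa had 860 against 1458 to 2220. In all 3 pairs KO replicate 2 held the highest count of the copy and the lowest of the parent. The part of sex chromosomes or of this library's preparation in these values was not tested.

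By family of the parent gene, the ribosomal protein copies were the largest group with 35 members from 23 parents. Both KO libraries lay below both WT libraries in 17 of them (48.6%, where 18.4% of all genes tested did) and above in 2 (5.71%, where 21.2% of all genes did), with a median log2 fold change of -0.22. Without KO replicate 2, and likewise without WT replicate 1, the median was -0.33. None passed the edgeR threshold. The parents showed the same order, with 15 of 23 lower and 2 higher and a median of -0.31. Rps6-ps4, identical to Rps6 where aligned, had 654 and 611 counts in KO and 692 and 658 in WT. Rpl10-ps5 had 32 and 36 against 90 and 44, and Gm10288 (Rpl11) had 61 and 46 against 81 and 77. Gm19427 (Rpl38) was the second member besides Rpl34-ps1 that was higher in KO, with 76 and 92 counts against 62 and 60. These groups separated by small margins, and the members with the same parent are not independent.

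**Figure D4:**
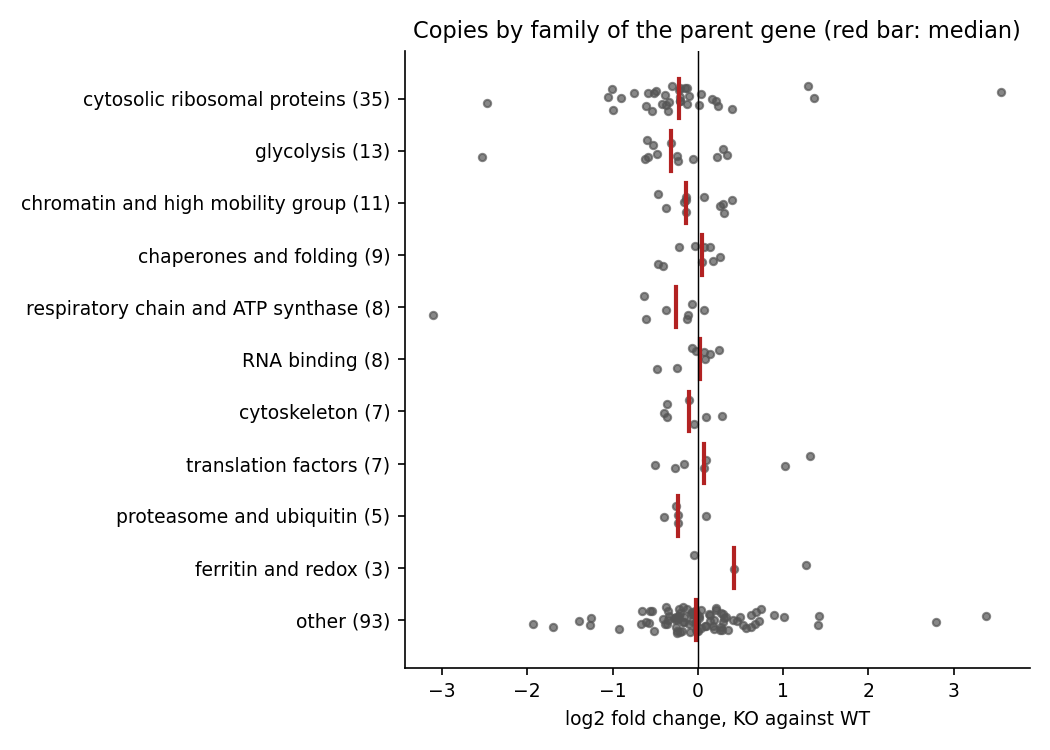
Log2 fold change of KO against WT (horizontal) for the members, grouped by the family of the parent gene, with the number of members in brackets and the median as a red bar. The ribosomal protein copies have a median of -0.22 with single members beyond -2 and 3, and the 93 copies of other parents centre near 0.

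The 13 glycolysis copies had a median of -0.31, with 5 lower (38.5%) and 2 higher (15.4%) without overlap. Of the 13, 10 have the same parent, Gapdh, which was itself lower in both KO libraries at -0.51 ± 0.23. The 4 parents, each counted once, had a median of -0.012, so the 2 medians are not weighted alike. The 8 copies of respiratory chain and ATP synthase genes had a median of -0.25, with 2 lower (25%) and 0 higher, while that of their 8 parents was 0.077. The shares over all genes tested were 18.4% lower and 21.2% higher, so the respiratory copies lay near the background for lower values. Medians were -0.13 for 11 copies of chromatin and high mobility group genes, 0.05 for 9 chaperone copies, 0.07 for 7 copies of translation factors and 0.03 for 8 copies of RNA-binding protein genes. They were -0.10 for 7 copies of cytoskeleton genes, -0.23 for 5 of proteasome and ubiquitin genes and 0.42 for 3 of ferritin and redox genes, of which 2 were higher and 0 lower without overlap. The 93 copies of other parents had a median of -0.02, with 19 lower and 19 higher. Over the 157 parents tested the median was -0.11, with 61 lower (38.9%) and 27 higher (17.2%) without overlap, beside the same 18.4% and 21.2% of all genes.

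Gapdh was the parent with the most members, 10, followed by Rps2 with 6 and Hmgb1 with 4. Gapdh itself had only 409 and 506 counts in KO and 699 and 563 in WT. Its 5 closest copies, at 99.8% to 99.9% identity, had ratios of 1.26 to 1.72 between the highest and lowest library. For example, Gm5559 had 143 and 145 counts in KO and 224 and 195 in WT, the same order as Gapdh. Gm13394, another of these copies, with 1 mismatch, went the other way. Its share of the joint counts was 14.6% and 15.0% in KO against 9.34% and 8.75% in WT. The diverged copies were uneven. Gm5345, at 90.7% identity, had 60 and 70 counts in KO and 18 and 163 in WT, and Gm6981, at 94.2%, had a ratio of 77.1. The copies of Hmgb1, a chromatin protein and alarm signal, were even, with ratios of 1.11 to 1.35. Gm5518 and Hmgb1-ps2 were higher in both KO libraries, at 0.30 and 0.29. Gm5527 went the other way, with a share of the joint counts of 7.71% and 7.16% in KO against 9.78% and 9.15% in WT. Among the 6 Rps2 copies Gm13204, at 86.6% identity, was lower in KO with 82 and 131 counts against 250 and 167. Gm11249 had 94 and 88 against 121 and 114, and Gm14276, Gm12366, Gm45855 and Rps2-ps13 overlapped.

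**Figure D5:**
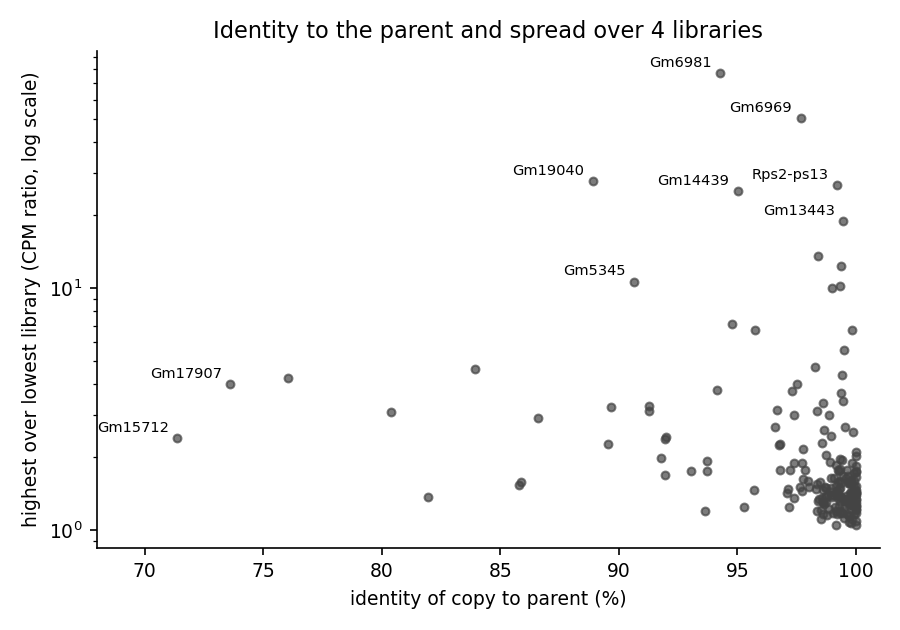
Ratio of the highest to the lowest library (CPM, vertical, log scale) against the identity of copy and parent (horizontal, percent) for 198 members with a parent and no count of 0. Copies at 100% identity reach a ratio of at most 2.10, while ratios above 10 occur at 88.9% to 99.5% identity.

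Features other than the count describe the members. A parent and a copy without introns are part of what the biotype means, and less abundant pseudogenes were not compared. A protein-coding parent was found by sequence for 199 of them, from 159 genes, and 135 of these genes had 1 member. Identity to the parent had a median of 99.2%, with 108 members at 99% or more, 22 at 100% and 27 under 95%. Copies had a median length of 750 bases, and 195 had a single exon. A protein-coding gene contained 31 members on the same strand and 35 on the opposite strand only, none over its exons, and the other 134 lay outside coding genes. Chromosome 2 held 27 members, chromosome 7 held 19, the X chromosome 14 and the Y chromosome none, and 15 lay on the chromosome of the parent.

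The spread over libraries was smaller for copies nearer to the parent. The median ratio of the highest to the lowest library was 1.41 for the 22 copies at 100% identity, 1.41 for the 86 between 99% and 100%, 1.53 for the 64 between 95% and 99%, and 2.89 for the 27 under 95%. The highest ratio at 100% identity was 2.10. Spearman's correlation of identity and ratio was -0.41 across 198 genes, which share the same 4 libraries, and identical copies can share reads with the parent. In 189 of 198 pairs the copy had fewer counts than the parent. The median share was 7.38%, with 17 copies under 1% and 9 over 50%. Spearman's correlation across the pairs, which share the 4 libraries, was 0.22 for log2 fold changes, where 64 of 197 pairs had opposite signs. Of 86 members without overlap and with a tested parent, the parent lay on the same side in 45, overlapped in 30 and lay on the opposite side in 11. Over the 157 parents tested, 38.9% lay lower and 17.2% higher, and a parent was counted once for each of its members. The number of same-side pairs to be met without any link of copy and parent was not computed.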

How the data were processed

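The authors deposited 4 tables, each with whole-number counts per gene for 1 KO and 1 WT library, per the file headers. The submitters' processing notes name HTSeq 0.6.0, TopHat2 2.0.12 and Bowtie2 2.2.3 without roles, and the build as mm9. The positions of 195 of the 200 members equal those of GENCODE M21, so coordinates are given on GRCm38. Strand use in counting, and the handling of multiply placed reads, were not given in the sources used here. Tables were joined by gene, with unlisted counts at 0 (at most 4 counts, and none among members). Other deposited columns were not used.

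Counts were compared with edgeR 4.0.16 (TMM, filterByExpr with a minimum count of 10, quasi-likelihood test, Benjamini-Hochberg over 17696 genes), with 2 residual degrees of freedom and a common dispersion of 0.204. The procedure was tested on simulated data. CPM used TMM-scaled totals. Standard errors are the log2 fold change over the root of F. Alternatives were DESeq2 1.42.0, limma-voom (limma 3.58.1), other scalings and filters, each library left out in turn, and the replicate number as a block. Parents are the best blastn 2.17.0 match among M21 coding transcripts (e-value 1e-10), which need not be the source of the copy. Counting limits for a count of 0 cover counting error only.

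Named are the 10 most abundant members, up to 8 higher and 8 lower with the largest log2 fold change among those without overlap and with at least 200 counts, any with a count of 0 in 1 library only, the pseudogenes beside the rank limit, and their parents. Others were chosen after their values were seen. Members and lists were chosen with earlier results of these data known.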

Additional observations from a re-analysis of the deposited data

How the results depend on the processing

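No member was called by edgeR under any other scaling or filter, at an adjusted p under 0.10, with unlisted counts at 4 or without any 1 library (0 to 0 calls), and limma-voom called 0. DESeq2 called 5 members and 8 parents, limma-voom 0 parents, and edgeR 0 to 2 parents without 1 library, against 1 with all. Same-numbered replicates did not deviate together (correlation 0.032). With 2 libraries per group this cannot settle whether the numbers mark a pairing. A fit with the replicate number as a block called 0 members and 1 parent. The median log2 fold change of members ran from -0.18 (without KO replicate 2) to -0.030 (without KO replicate 1), and that of ribosomal copies from -0.33 to -0.21. Members on in 1 group only numbered 0 to 1 without 1 library. Single log2 fold changes were followed for 30 of the named members only, and sign changes among the other members were not examined. Without 1 library the sign changed for Gm7964 (-0.18 to 0.041), Gm1821 (-0.15 to 0.33) and Gm9825 (-0.048 to 0.89). It also changed for Gm13443 (-3.58 to 0.67), Gm6969 (-5.28 to 0.36), Gm19040 (-3.55 to 1.21) and Gm14113 (-0.64 to 9.55, the last fitted against 0 counts and no bound). For Gm19040, 0.26 with all libraries, the value was -1.02 with limma-voom and -0.85 with the replicate block. The cause was not tested. Members near 200 counts are limited by depth.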
